A study of Mus musculus with 20 samples.

Results

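The data described here were the 10 liver profiles of phenobarbital-treated mice among 20 arrays, read for one question: which transcripts varied with Cyp2b10 from one treated animal to the next. The 10 arrays were those titled PB_28d and PB_90d, and genes were selected on the correlation of their values with that of Cyp2b10 in these arrays. In each of the 2 groups the group mean of every gene was subtracted, and the remaining deviations of 16053 genes were correlated with those of Cyp2b10, so that neither treatment nor duration entered the relation. The animals were male CD1 mice, an outbred stock, given phenobarbital sodium by mouth at 80 mg/kg/day for 28 days (PB_28d, n = 5) or 90 days (PB_90d, n = 5). Vehicle mice of the same sex and stock received methylcellulose alone for 28 days (CMC_28d, n = 5) or 90 days (CMC_90d, n = 5) and serve only as a second set of livers in which the same relation can be measured. Each array held RNA of 1 mouse, from the left lateral lobe frozen on the day after the last dose, and all mice, which had been assigned at random, were bled under isoflurane anaesthesia at necropsy. Values are log2 RMA intensities, so a difference of 1 unit is a 2-fold difference in signal, and the number of arrays limits the precision. The age of the mice was not given in the sources used here.

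Phenobarbital acts in hepatocytes largely through the constitutive androstane receptor CAR, encoded by Nr1i3, which moves to the nucleus, pairs with the retinoid X receptor and binds enhancers upstream of drug-metabolising genes. Cyp2b10, a cytochrome P450 of the endoplasmic reticulum, is the gene most often used in the mouse to read CAR activity. Other known targets include Cyp2c enzymes, glutathione S-transferases, carboxylesterases and efflux transporters, and much of this induction takes place in the hepatocytes around the central vein.

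The tissue carried its label. Albumin (Alb) lay between 14.82 and 15.18 on all 20 arrays, and transthyretin (Ttr) between 14.91 and 15.12, near the ceiling of about 15.3 that the arrays reached. PB_28d replicate 5 and PB_90d replicate 3 stood apart from the other treated livers on the first principal component of the treated deviations, which held 72.7% of their variance. Relations are therefore given over 10 arrays and over the 8 without these animals.

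Cyp2b10 itself varied among the treated livers. At 28 days it stood at 11.68, 11.65, 10.81, 11.49 and 9.03 in replicates 1 to 5 (10.93 ± 1.12, SD, n = 5), and at 90 days at 11.93, 11.86, 10.54, 11.96 and 12.23 (11.70 ± 0.67, SD, n = 5). The low animals were PB_28d replicate 5 and PB_90d replicate 3, the same arrays that stood apart on the first component. All 10 treated values lay above the highest of the 10 vehicle livers, which ranged from 4.66 to 7.78.

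The range that remains without these animals is narrow. At 28 days the span fell from 2.66 to 0.87 log2 units, and at 90 days from 1.69 to 0.37, so the 8 livers differed in Cyp2b10 signal by at most 1.83-fold and 1.29-fold within a duration. The 3 probe sets of Cyp2b10 gave nearly the same order of animals: the other sets correlated with the one used at 0.999 and 0.994 over 10 arrays and at 0.990 and 0.956 over 8.

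**Figure D1:**
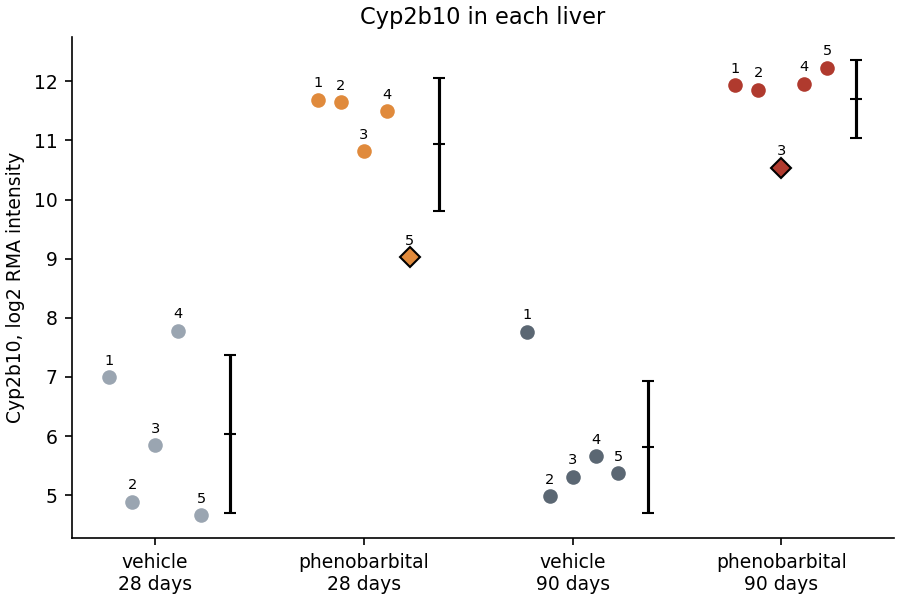
Log2 RMA intensity of Cyp2b10 on each of the 20 arrays, by group; numbers are replicates, and the bars beside each group are mean ± SD (n = 5). PB_28d replicate 5 (9.03) and PB_90d replicate 3 (10.54), drawn as diamonds, lie below the other treated livers of their duration and above all vehicle livers.

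The upstream sequences of the P450 genes that the results turn on were compared, and only some of these relatives are alike. Each line gives the 250 bases before the annotated start, from RefSeq on GRCm38.p6, 5′ to 3′ on the plus strand, with AGGTCA (a nuclear receptor half-site) and CCAAT, or their reverse complements TGACCT and ATTGG, in capitals. The positions are chr7:25897408-25897657 for Cyp2b10, chr7:26061245-26061494 for Cyp2b13, chr19:40089429-40089678 for Cyp2c50, chr19:39992174-39992423 for Cyp2c37 and chr19:39006769-39007018 for Cyp2c55.
Cyp2b10: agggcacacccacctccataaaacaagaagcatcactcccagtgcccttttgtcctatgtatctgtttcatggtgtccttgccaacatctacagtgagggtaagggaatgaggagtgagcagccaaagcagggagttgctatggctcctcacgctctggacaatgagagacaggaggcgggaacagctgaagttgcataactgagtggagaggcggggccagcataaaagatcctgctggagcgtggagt
Cyp2b13: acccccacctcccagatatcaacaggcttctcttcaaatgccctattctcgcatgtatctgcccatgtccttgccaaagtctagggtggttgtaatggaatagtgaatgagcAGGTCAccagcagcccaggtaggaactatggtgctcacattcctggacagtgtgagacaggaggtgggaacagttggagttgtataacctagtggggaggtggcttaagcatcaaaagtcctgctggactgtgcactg
Cyp2c50: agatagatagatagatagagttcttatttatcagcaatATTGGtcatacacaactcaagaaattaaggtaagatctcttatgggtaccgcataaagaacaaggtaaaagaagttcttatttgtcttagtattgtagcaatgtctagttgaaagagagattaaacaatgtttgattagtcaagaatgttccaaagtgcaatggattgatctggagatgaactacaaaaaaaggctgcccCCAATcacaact
Cyp2c37: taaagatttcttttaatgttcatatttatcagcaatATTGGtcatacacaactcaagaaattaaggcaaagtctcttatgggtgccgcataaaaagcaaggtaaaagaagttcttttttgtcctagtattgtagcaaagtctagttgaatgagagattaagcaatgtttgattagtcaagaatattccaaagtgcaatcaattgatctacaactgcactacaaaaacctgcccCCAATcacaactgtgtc
Cyp2c55: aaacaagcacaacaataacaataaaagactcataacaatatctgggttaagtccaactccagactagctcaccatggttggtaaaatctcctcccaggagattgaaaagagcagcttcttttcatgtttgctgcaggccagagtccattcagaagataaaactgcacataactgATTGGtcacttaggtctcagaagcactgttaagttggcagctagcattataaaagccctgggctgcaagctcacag

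Cyp2b13 and its neighbour Cyp2b9 (chr7:26173159-26173408) matched at 248 of 250 bases, and each held 1 half-site at position -138 from the start. Cyp2b10 shared 70.0% of aligned bases with either and held neither motif in this window. Cyp2c50 and Cyp2c37 shared 84.3% and held 2 CCAAT motifs each, while Cyp2c55 shared 52.0% with Cyp2c50 and held 1. That is near the level between Cyp2b10 and the Cyp2c genes, which was 46.7% for Cyp2c50, 44.3% for Cyp2c37 and 50.2% for Cyp2c55. Searched on both strands over 32851 promoters of the same length, the half-site was found in 14.0% and CCAAT in 33.9%. These matches describe letters only, and Cyp2c54 was not among the promoters used here.

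Over 10 arrays the signal of many genes moved with Cyp2b10. In limma, with 1 slope on the Cyp2b10 value and 1 mean per duration, 3092 of 16053 genes were higher where Cyp2b10 was higher (19.3%) and 2483 were lower (15.5%) at a Benjamini-Hochberg adjusted p under 0.05, in all 5575 genes (34.7%). Higher calls made up 55.5% of these, and 37.3% when each array was centred on its 75th percentile or 45.1% after quantile normalization, which put the median r of all genes at -0.48 and -0.23 in place of -0.18. Over the 8 arrays 0 genes passed (0%), with 236 at an unadjusted p under 0.05. PB_28d replicate 5 decided this: without it alone 0 genes passed, whereas without PB_90d replicate 3 alone 2249 were higher and 1281 lower. An exact permutation test within durations called 0 genes over 10 arrays after adjustment, with 3103 higher and 3384 lower at an unadjusted p under 0.05.

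Of the genes called higher over 10 arrays, most had the opposite sign in the 8 livers that both calculations share, and the genes called lower were divided. Of the 3092 called higher, 609 (19.7%) had a positive r over 8 arrays, and the median r of the group was -0.21. Of the 2483 called lower, 1397 (56.3%) had a negative r over 8 arrays, with a median of -0.04. Of all 16053 genes 44.6% had a positive r over 8 arrays, with a median of -0.05. The genes called lower were thus divided much as all genes were. The plot of r over 10 arrays against r over 8 shows this as a dense band of genes near 0.85 on the horizontal axis that lies mostly under 0 on the vertical one.

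**Figure D2:**
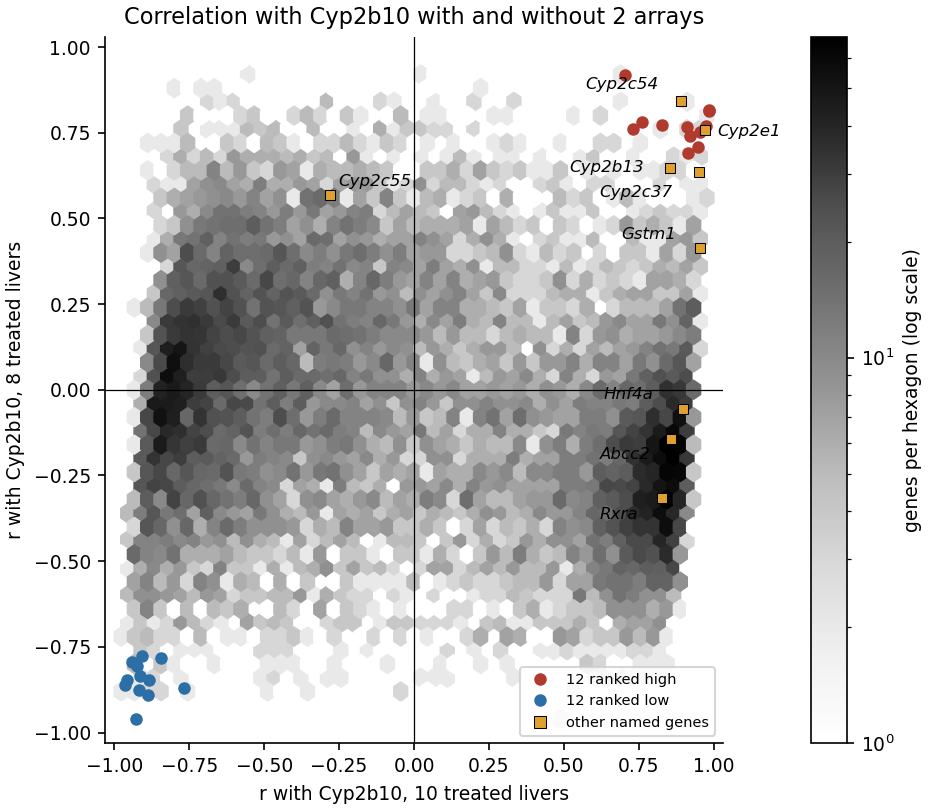
Pearson r with Cyp2b10 over 10 treated livers (horizontal) and over the 8 without PB_28d replicate 5 and PB_90d replicate 3 (vertical) for 16053 genes, shaded by number of genes on a log scale. Red and blue points are the 12 genes ranked highest and lowest by the weaker of the 2 values, and yellow squares are other named genes; Hnf4a, Abcc2 and Rxra lie far right but under 0.

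Other measures of the arrays moved with Cyp2b10 as well. Its deviations correlated with the first component at r = 0.855 over 10 arrays (exact permutation p = 0.0299) but at rho = 0.333 by rank (exact permutation p = 0.383), and over 8 arrays at r = -0.233 (exact permutation p = 0.432). The interquartile range of all probe sets on an array correlated with Cyp2b10 at r = 0.794 over 10 arrays (exact permutation p = 0.037, rho = 0.370) and at -0.306 over 8. The relation of each gene also went with its brightness. Over 10 arrays the median r was -0.44 in the dimmest decile of genes, 0.60 in decile 8 and 0.20 in the brightest, and over 8 arrays it was 0.10, -0.17 and -0.10. What part the first component, the width of the distribution or the brightness of a gene had in the calls was not tested. With the first component as a covariate 0 genes were higher and 1 was lower (0.00623%), Cib3, which is named here because it was the only one and had r = -0.465 over 10 arrays and -0.584 over 8.

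**Figure D3:**
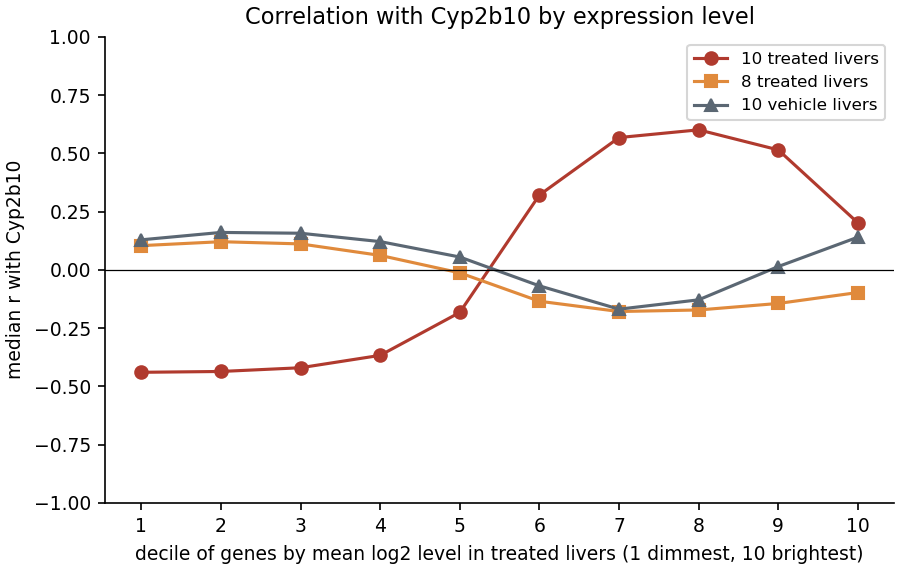
Median r with Cyp2b10 in deciles of the 16053 genes by mean log2 level in treated livers, for 10 treated, 8 treated and 10 vehicle livers. The 10-array line runs from -0.44 in the dimmest decile to 0.60 in decile 8, and the other lines lie between -0.18 and 0.16.

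A few P450 enzymes passed over 10 arrays and kept a positive r over 8, where none passed the adjustment over all genes. Cyp2c50, an arachidonic acid and drug oxidase, read 13.92, 13.81, 13.67, 13.84 and 12.87 in PB_28d replicates 1 to 5 and 13.74, 13.74, 13.27, 13.87 and 14.00 at 90 days. Within each duration its lowest value was in the animal with the lowest Cyp2b10, and PB_28d replicate 3, the next lowest for Cyp2b10 at 28 days, was also next lowest here. The slope was 0.39 ± 0.04 (SE) log2 units per log2 unit of Cyp2b10, with r = 0.985, rho = 0.92 and adjusted p = 0.00164 in limma. Over 8 arrays r was 0.814 (exact permutation p = 0.0122) and rho 0.79, without passing the adjustment over all genes. Cyp2c50 was also among the genes ranked highest for r, so its place among them is a description.

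Cyp2c54, a close relative, read 13.79, 13.82, 13.48, 13.63 and 13.32 at 28 days and 13.81, 13.82, 13.28, 13.84 and 13.80 at 90 days. PB_90d replicate 3 was set far from a tight group of 4, and at 28 days replicates 3 and 5 were lowest, as for Cyp2b10. Its slope was 0.22 ± 0.05 (SE), with r = 0.890 over 10 arrays (rho = 0.77, limma adjusted p = 0.00643). Over 8 its r was 0.842 (exact permutation p = 0.0729) and its rho 0.60. Cyp2c37, another epoxygenase of this cluster, had a slope of 0.64 ± 0.10 (SE), with r = 0.953 (limma adjusted p = 0.00239) and 0.634 over 8 arrays. Its signal was 7.34 in PB_28d replicate 5 against 8.61 to 9.12 in the other 4, and 7.84 in PB_90d replicate 3 against 8.56 to 9.30. Cyp2c38, with a slope of 0.68, and Cyp2c29, with 0.17, also passed over 10 arrays, with r = 0.387 and 0.400 over 8.

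The Cyp2b relatives spread more than these Cyp2c genes. Cyp2b13, an enzyme with female-biased expression in mouse liver, read 8.80, 8.67, 7.26, 8.85 and 5.91 at 28 days and 10.01, 7.70, 7.00, 10.11 and 9.89 at 90 days. All 10 exceeded the vehicle range of 4.85 to 5.64, and the 2 lowest were again the animals lowest for Cyp2b10. PB_28d replicate 3 and PB_90d replicate 2, the lowest for Cyp2b10 among the remaining 4 at each duration, were also lowest of the 4 for Cyp2b13. The slope was 1.28 ± 0.24 (SE) with r = 0.853 (rho = 0.60, limma adjusted p = 0.00321), and over 8 arrays r was 0.647 (exact permutation p = 0.0573) with rho = 0.21. Cyp2b9 had a slope of 1.41 ± 0.24 (SE), r = 0.869 (limma adjusted p = 0.00274) and 0.635 over 8 arrays. The 3 Cyp2b genes and the Cyp2c genes are close copies, so that part of a probe set's signal can come from a relative.

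Cyp2e1, the ethanol-oxidising P450 of pericentral hepatocytes, kept its direction with a small slope. It read 14.72, 14.64, 14.58, 14.64 and 13.98 at 28 days and 14.67, 14.69, 14.38, 14.66 and 14.69 at 90 days. The other 4 livers lay between 14.58 and 14.72 at 28 days and between 14.66 and 14.69 at 90 days, close to the top of the scale. Its r was 0.972 over 10 arrays (limma adjusted p = 0.00239) and 0.758 over 8 (exact permutation p = 0.2), where rho was 0.50.

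**Figure D4:**
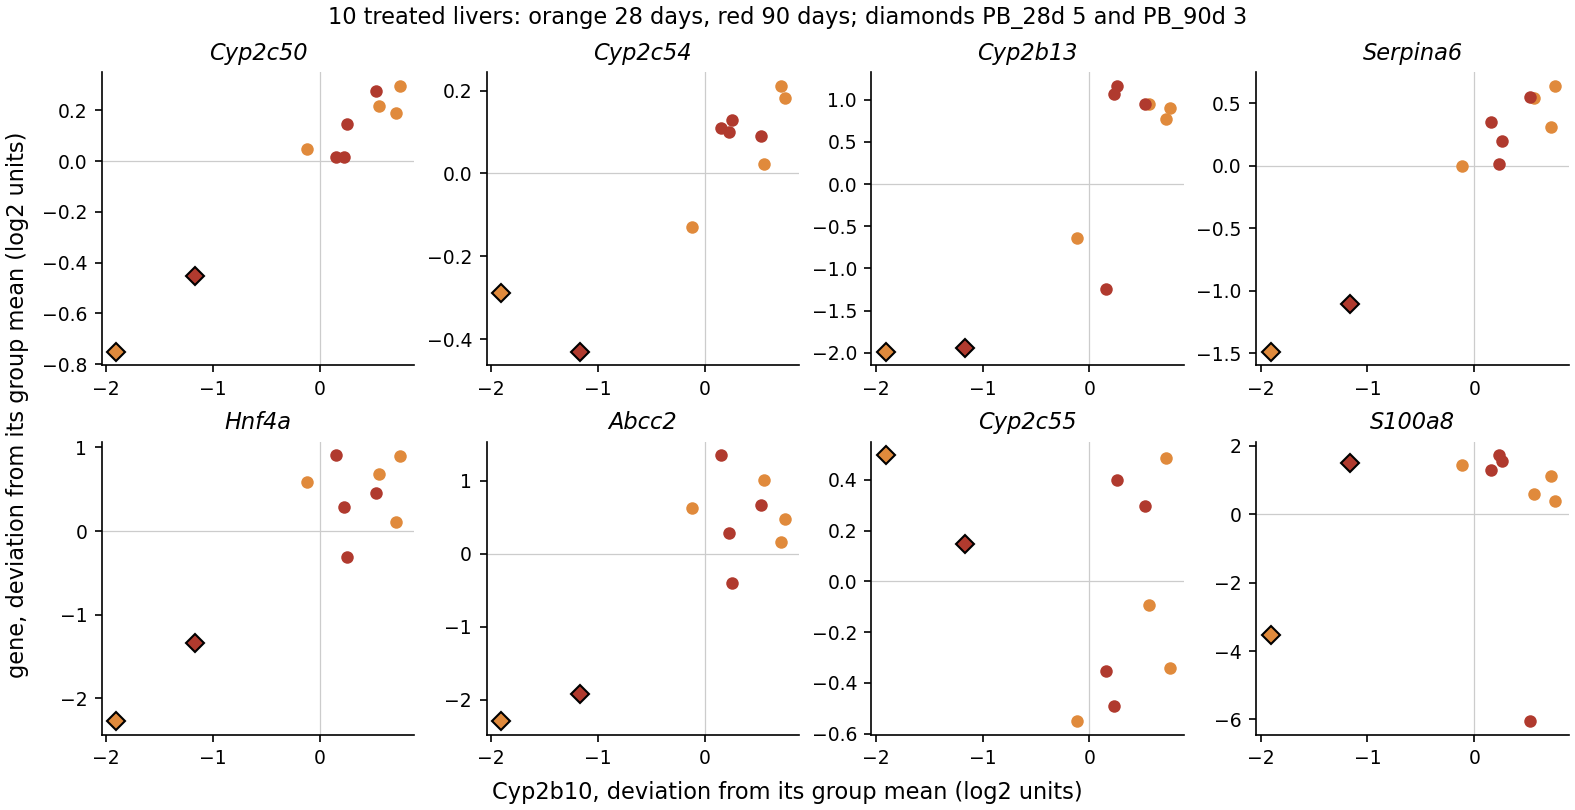
Deviation of 8 genes from their duration mean against the deviation of Cyp2b10, both in log2 units, in the 10 treated livers (orange 28 days, red 90 days; diamonds PB_28d replicate 5 and PB_90d replicate 3). In the upper row the other 8 points also tend upwards to the right, while Hnf4a and Abcc2 show no such slope among the 8, and Cyp2c55 (r = -0.281 over 10 arrays) and S100a8 (0.199) lie scattered.

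Outside the P450 family, 11 more genes made up the 12 highest by the weaker of the 10-array and 8-array r, among 8027 genes at or above the median spread of 0.30 log2 units. Since these values chose them, they are described without a test. Serpina6, which encodes the corticosteroid carrier of plasma, read 11.66, 11.33, 11.02, 11.56 and 9.53 at 28 days and 11.22, 11.56, 10.10, 11.41 and 11.76 at 90 days, with r = 0.976 and 0.769. Bdh1, the mitochondrial enzyme of ketone body metabolism, read 11.09, 10.98, 10.75, 11.09 and 9.82, then 11.09, 11.20, 10.44, 11.03 and 11.29, with r = 0.985 and 0.816. In both genes PB_28d replicate 5 and PB_90d replicate 3 were lowest, and PB_28d replicate 3 was next lowest at 28 days. A second, dimmer probe set of Bdh1 gave r = 0.931 over 10 arrays but 0.115 over 8.

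Amino acid enzymes appeared beside them. Oat, ornithine aminotransferase, had r = 0.762 and 0.780, and Gcdh, the glutaryl-CoA dehydrogenase of lysine breakdown, 0.914 and 0.692. Slc1a2, a glutamate transporter, had the highest 8-array value, 0.917, beside 0.706 over 10 arrays: it read 7.84, 7.59, 6.68, 7.44 and 6.73 at 28 days, so replicate 3 was as low as replicate 5. A probe set of Slc1a2 of nearly the same brightness gave r = 0.847 and 0.400. Nfyb, a subunit of the factor NF-Y that binds CCAAT, had r = 0.956 and 0.751, and its second probe set 0.865 and 0.526.

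Among these 12 the widest spread belonged to Ctse, the aspartic protease cathepsin E. It read 9.67, 9.63, 8.91, 9.20 and 5.05 at 28 days and 9.96, 9.87, 8.50, 9.29 and 10.11 at 90 days, with r = 0.949 and 0.709. PB_28d replicate 5 differed from the mean of the other 4 by -4.31 log2 units, and lay below the vehicle range of 5.85 to 9.85. A second, dimmer probe set of Ctse gave r = 0.741 over 10 arrays but -0.377 over 8. The remaining 4 were Pla2g12a, a secreted phospholipase A2, Ppm1a, a protein phosphatase, Gpn2, a GTPase, and Pacc1, a proton-activated chloride channel, with r over 10 arrays from 0.731 to 0.920 and over 8 arrays from 0.740 to 0.771. Other probe sets disagreed for Ppm1a, with r of 0.105 and 0.453 over 10 arrays and -0.222 and -0.229 over 8 in the 2 next brightest, and for Pacc1, whose other 3 had a negative r over 10 arrays. All 12 had positive slopes at 28 and at 90 days taken singly. The last gene inside the ranking had a weaker r of 0.692, and the next, Micalcl, 0.660.

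The main drug-response genes did not all behave like Cyp2c50. Of 47 genes of phenobarbital response and liver control that were named without regard to r, 23 were called higher with Cyp2b10 and 2 lower over 10 arrays, beside 19.3% and 15.5% of all genes, and 0 over 8. Of the 23, 15 had a positive r over 8 arrays, and 6 an r above 0.5. At an unadjusted p under 0.05 the exact permutation test named 29 of the 47 over 10 arrays. Of all 16053 genes it named 3103 higher and 3384 lower at this cut. Over 8 arrays it named 2 of the 47, Cyp2c50 and S100a8, which is close to the share that a cut of 0.05 gives by chance.

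Cyp2c55, a gut and liver P450 that phenobarbital raises strongly, had no relation with Cyp2b10 that passed over 10 arrays. It read 11.23, 12.06, 11.02, 11.48 and 12.07 at 28 days and 11.20, 11.34, 11.84, 12.09 and 11.99 at 90 days, against 5.71 to 7.15 in vehicle livers. PB_28d replicate 5, with the least Cyp2b10, had as much Cyp2c55 as the highest of the other 4, and PB_90d replicate 3 lay in the middle of its own group. The r was -0.281 (exact permutation p = 0.538, limma adjusted p = 0.482), with rho = 0.03, and 0.569 over 8 arrays (exact permutation p = 0.186).

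Other genes of the set were likewise not called over 10 arrays. Cyp3a11, a target shared with the pregnane X receptor, had r = -0.409 and 0.224, and its 10 values lay between 14.79 and 14.97. Sult1e1, oestrogen sulfotransferase, had r = -0.271 and -0.067, Nebl, which encodes nebulette, 0.303 and 0.187, and Serpinb1a, a protease inhibitor, -0.170 and 0.338. Alas1, the first enzyme of heme synthesis, had r = -0.026 and 0.316 while ranging from 7.10 to 10.71 in the treated livers. Gstt1, Aldh1a1 and Gadd45b had 10-array r of -0.183, 0.032 and 0.144 and 8-array r of -0.253, -0.278 and 0.208. Ccnd1, cyclin D1, had r = 0.521 and 0.558 and did not pass (limma adjusted p = 0.366). Its other probe sets, both somewhat dimmer, did pass over 10 arrays when probe sets were tested singly. They had r = 0.895 (limma adjusted p = 0.00372) and 0.753 (limma adjusted p = 0.0475), and 0.226 and 0.520 over 8, so the lack of a call rests on the probe set used.

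A larger group was strongly related over 10 arrays and not over 8. Hnf4a, the nuclear receptor that maintains the hepatocyte programme, read 12.81, 12.02, 12.50, 12.60 and 9.64 at 28 days and 12.34, 12.96, 10.71, 11.74 and 12.51 at 90 days. PB_28d replicate 5 and PB_90d replicate 3 differed from the mean of their group's other 4 by -2.84 and -1.68 log2 units, and also lay under the vehicle minimum of 11.16. The slope was 1.07 ± 0.16 (SE), with r = 0.897 but rho = 0.47 (limma adjusted p = 0.00239), and r = -0.057 over 8 arrays. Its probe sets differed: in the other 3, r was 0.950, 0.923 and -0.627 over 10 arrays and 0.441, -0.032 and 0.042 over 8, and the last was the dimmest.

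Rxra, the partner of CAR, behaved alike, with 7.71 and 7.78 in the 2 animals and 9.43 to 10.83 in the other 8 treated livers (r = 0.829, limma adjusted p = 0.00472, and -0.317 over 8). Its dimmer probe sets gave r = 0.556 and 0.494 over 10 arrays, where neither passed when tested singly, and 0.244 and 0.174 over 8. Nr1i2, which encodes the pregnane X receptor, had r = 0.943 and 0.102. Nr1i3, CAR itself, went the other way without passing, with r = -0.607 (limma adjusted p = 0.105) and 0.383 over 8 arrays, and read 10.39 in PB_28d replicate 5 and 10.14 in PB_90d replicate 3, the highest of their groups.

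The transporters of the set showed the same split. Abcc2, the canalicular export pump for conjugates, read 7.31 and 8.03 in the 2 animals and 9.55 to 11.30 in the other 8, with r = 0.856 (limma adjusted p = 0.00308) and -0.142. Abcc3, its basolateral relative, had r = 0.853 and -0.055, and the organic anion carrier Slco1a4 0.804 and -0.073. Gstm1, a glutathione S-transferase, kept a positive r. It read 13.59, 13.37, 13.32, 13.33 and 11.17 at 28 days and 13.58, 13.80, 12.66, 13.43 and 13.87 at 90 days, with a slope of 0.82 ± 0.08 (SE), r = 0.956 and rho = 0.87 (limma adjusted p = 0.00164), and r = 0.415 over 8 arrays.

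Non-induced liver genes did so too. Glul, glutamine synthetase of the innermost pericentral cells, had r = 0.857 and -0.005, and Alb had r = 0.921 and -0.052 with a slope of 0.11 ± 0.03 (SE), a direction that turned to r = -0.232 when arrays were centred on the 75th percentile. The 2 genes of this set called lower, Cbr3, a carbonyl reductase, and Sult1d1, a sulfotransferase, had r = -0.755 and -0.772 over 10 arrays and 0.455 and 0.180 over 8. S100a8, a calprotectin subunit of neutrophils, fell outside both patterns, with 11.73 to 12.79 in PB_28d replicates 1 to 4, 7.80 in replicate 5, 12.76 to 13.21 in PB_90d replicates 1 to 4 and 5.42 in replicate 5. The last of these had the highest Cyp2b10 of all livers. For S100a8 r was 0.199 over 10 arrays and -0.436 over 8 (exact permutation p = 0.0347), where rho was -0.67.

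Genes ranked lowest were mostly dim. The 12 lowest by the weaker r had mean levels from 3.92 to 9.19 with a median of 5.14, against 6.98 to 13.67 with a median of 9.66 in the 12 highest, and 5 of them lay within 1 log2 unit of the array's 25th percentile. Top2a, topoisomerase II alpha of dividing cells, came first with r = -0.927 and -0.961 on a probe set between 4.38 and 5.37. Its other 2 probe sets gave 0.079 and -0.683 over 10 arrays and 0.124 and 0.671 over 8, so the gene has no single direction here.

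The brighter members were Bok, of the Bcl-2 family, and Egfl7, a secreted protein of endothelial cells. Bok read 8.66, 9.02, 9.29, 8.99 and 9.78 at 28 days and 9.17, 9.09, 9.60, 9.25 and 9.01 at 90 days, with r = -0.942 and -0.793. Egfl7 had r = -0.907 and -0.776. Its dimmer probe sets gave -0.714, -0.488 and -0.808 over 10 arrays, where none passed when tested singly. Over 8 arrays they gave only -0.106, -0.086 and -0.294. S100a9, the partner of S100a8, had r = -0.767 and -0.870. S100a9 read 7.18 and 7.04 in PB_28d replicates 3 and 5, was lowest at that duration with 5.74 in replicate 1, and read 6.04, 5.31, 6.26, 5.59 and 5.08 at 90 days, so the lows of S100a8 in PB_28d replicate 5 and PB_90d replicate 5 were matched only in the latter. The rest were Zfp982, Fgf10, AI429214, Olfr49, Clca3a1, 4930556N13Rik, Lrp2 and Dnah2, with r over 10 arrays from -0.965 to -0.844 and over 8 arrays from -0.892 to -0.782. The last gene inside the ranking had a weaker r of -0.767, and the next, Majin, -0.750.

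Read by function, most liver programmes leaned one way over 10 arrays and lost that lean over 8. Of all genes 19.3% were called higher and 15.5% lower, which is the background for each count of members. Of 34 P450 enzymes and their electron donors 18 were called higher and 3 lower over 10 arrays, with a median r of 0.74, and over 8 arrays 22 of 34 were positive with a median of 0.20. For all 16053 genes the medians were -0.18 and -0.05, and 43.6% and 44.6% were positive. The P450 list thus kept a median above 0, if a much smaller one. The pericentral list did so at 0.14, after 0.71 over 10 arrays with 12 of 24 called higher and 0 lower. A median above 0 over 8 arrays was not particular to these lists, since 13 of 32 lists had one. Among them were markers of neutrophils (0.19) and of erythroid cells (0.16), which had -0.28 and -0.43 over 10 arrays. The female-biased list had 0.05 over 10 arrays (-0.22 when each array was centred on its 75th percentile) and 0.23 over 8, with 20 of 29 positive.

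Among other hepatocyte lists, conjugating enzymes had a median r of 0.05 over 10 arrays and 0.10 over 8. Fatty acid oxidation and PPAR alpha targets had 0.32 and 0.07, and ER folding and heat shock 0.55 and 0.003. With each array centred on its 75th percentile, the 10-array medians of these lists were -0.36, -0.06 and 0.29 in the same order. After quantile normalization they were -0.14, 0.29 and 0.58. The lists that follow had a median under 0 over 8 arrays. Drug and bile salt transporters had a median r of 0.79 with 13 of 22 called higher and 1 lower, and -0.13 over 8 arrays with 4 of 22 positive. Nuclear receptors and CAR signalling had 0.73 (23 of 38 called higher, 1 lower) and -0.16, NRF2 antioxidant targets 0.80 (13 of 21 higher, 3 lower) and -0.19, and bile acid synthesis 0.83 (10 of 16 higher, 3 lower) and -0.02. Lipogenesis, which includes Scd1, Fads1 and Fads2, the fatty acid desaturases, had 0.75 (20 of 29 higher, 2 lower) and -0.25, with 3 of 29 positive over 8 arrays. Slc10a1 and Abcb11, the uptake and export carriers of bile salts, had 10-array r of 0.92 and 0.91 and 8-array r of -0.07 and -0.01.

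Lists that leaned the other way held housekeeping transcripts and markers of blood and immune cells. Cytosolic ribosomal proteins had a median r of -0.72 over 10 arrays (17 of 31 called lower, 2 higher) and -0.08 over 8, and respiratory chain subunits -0.71 (22 of 49 lower, 7 higher) and -0.14. Rps25, a small-subunit protein, lay 1.81 and 1.55 log2 units above the other 4 in PB_28d replicate 5 and PB_90d replicate 3. Cell cycle genes had a median of -0.46 (11 of 47 lower, 2 higher) and 0.05. The background for these counts was 15.5% of all genes called lower.

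**Figure D5:**
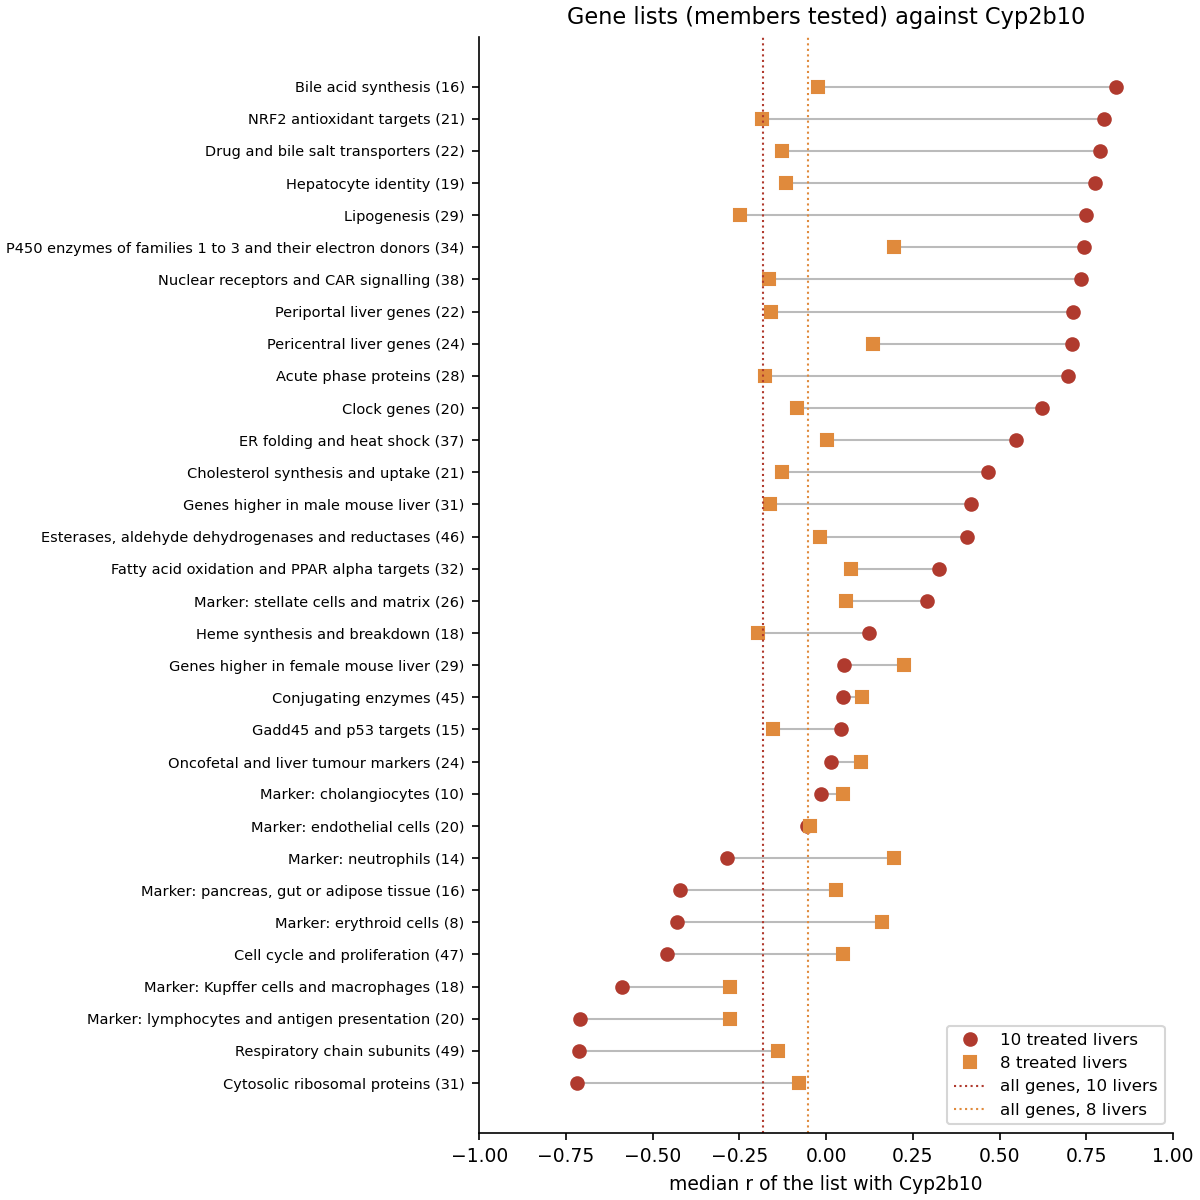
Median r with Cyp2b10 of 32 gene lists, over 10 treated livers (circles) and over the 8 without PB_28d replicate 5 and PB_90d replicate 3 (squares); numbers in brackets are members tested, and dotted lines are the medians of all genes. Medians over 10 arrays run from -0.72 to 0.83, and over 8 arrays from -0.28 to 0.23.

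Markers of some of the cells a liver sample can hold moved as well. In whole tissue fewer cells of a type cannot be told apart from less RNA per cell. The mean log2 level of 20 markers of lymphocytes and antigen presentation was 6.67 in PB_28d replicate 5 and 6.29 in PB_90d replicate 3, and 5.77 to 6.12 in the other 8, with r = -0.961 with Cyp2b10 over 10 arrays and -0.713 over 8. For 18 markers of Kupffer cells and macrophages the means were 8.23 and 7.86, against 6.89 to 7.98 in the other 8 (r = -0.732 and -0.362). For the 19 hepatocyte genes they were 12.21 and 12.62, under the 12.83 to 13.12 of the rest (r = 0.894 and -0.125), and the median r of the list over 10 arrays, 0.77, turned to -0.29 when arrays were centred on the 75th percentile. Within this list the low values were uneven: Hnf4a and Apob, which encodes apolipoprotein B and read 8.32 and 8.98 in the 2 animals against 10.22 to 12.56, were far down, while Apoa2, of high-density lipoprotein, read 14.93 and 14.90 against 14.91 to 15.00. The other marker lists did not share 1 direction. Over 10 arrays their mean levels had r = -0.04 for neutrophils, -0.14 for cholangiocytes and -0.25 for endothelial cells. Erythroid markers had -0.66, those of pancreas, gut or adipose tissue -0.79, and those of stellate cells and matrix 0.74. Over 8 arrays the values were -0.50, -0.47, 0.001, 0.14, -0.02 and 0.08 in the same order. The part of these marker levels in the relations with Cyp2b10 was not tested. Members called were 11 of 20 lower and 0 higher for lymphocytes, 7 of 18 lower and 1 higher for macrophages, and 9 of 19 higher and 1 lower for hepatocytes, where 15.5% of all genes were called lower and 19.3% higher.

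Vehicle livers gave a second look at the same relation in animals without drug. Over the 10 vehicle arrays 0 genes passed in limma (0%), with 1107 at an unadjusted p under 0.05. Across genes, which are not independent replicates, r in vehicle livers correlated with r over the 10 treated arrays at -0.57 and with r over the 8 at 0.16. The genes that tracked Cyp2b10 in treated livers mostly did not in vehicle livers: Cyp2c50 had r = 0.11, Cyp2c37 -0.26 and Cyp2b13 0.00, although Cyp2c54 had 0.56. In vehicle livers Cyp2b13 read only 4.85 to 5.64, where the 25th percentile of the arrays lay between 3.96 and 4.26. Its r there therefore carries little information. Cyp2b10 itself read from 4.66 to 7.78 in vehicle livers, with 4.66 in CMC_28d replicate 5 and 4.89 in CMC_28d replicate 2. The lower part of its vehicle range thus lay close to that percentile, which limits every vehicle relation given here. Of the 12 genes ranked highest, 2 had a positive r in vehicle livers, and of the 12 lowest, 1 had a negative one.

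None of the vehicle relations passed, and those with the smallest p-values included macrophage genes. They were Clec4n, a C-type lectin, Aif1, a marker of macrophages, Cd84, Lgals3, which encodes galectin-3, and Pcolce2, with r from 0.887 to 0.937. Aif1 was high in CMC_28d replicates 1, 3 and 4, at 6.59, 6.31 and 6.97, against 5.29 and 5.21 in the others. The 18 macrophage markers had a median r of 0.74 in vehicle livers with 16 positive, against -0.59 over the 10 treated arrays and -0.28 over the 8. Respiratory chain subunits had 0.59 in vehicle livers (45 of 49 positive), ribosomal proteins 0.58 (28 of 31) and endothelial markers 0.50 (17 of 20), where all genes had 0.06 (8813 of 16053).

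The slopes of treated and vehicle livers differed for 6092 of 16053 genes in limma (37.9%), of which 3240 (20.2%) had the higher slope in treated livers. Without PB_28d replicate 5 and PB_90d replicate 3 this number was 0, with 275 at an unadjusted p under 0.05. Vehicle slopes also carry the limit that Cyp2b10 lay close to background in some of those livers. The smallest p-values were those of Pm20d1, an enzyme of N-acyl amino acids, Pzp, a plasma protease inhibitor, Glmp, Abhd2, Ctns, the lysosomal cystine carrier, and Aif1. Pm20d1 had slopes of 1.55 in treated and -0.26 in vehicle livers (limma adjusted p = 0.00082), and read 7.06 and 9.53 in the 2 low animals against 10.78 to 12.20 in the other 8. Aif1 had the opposite signs, with slopes of -0.77 and 0.46.

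The genes with the smallest p-values over the 10 treated arrays alone were of the same kind. The 10 highest included Serpina6, Gstm1, Ctse and Cyp2c50 with Slc27a2, a very long-chain fatty acid activator, Usp15, a deubiquitinase, Cyp2c23 and H2-D1, a class I histocompatibility gene. Over 8 arrays Slc27a2 had r = 0.449, Usp15 0.267, Cyp2c23 0.426 and H2-D1 0.246, below Serpina6 at 0.769. The probe sets of H2-D1 disagreed, and 3 others had r of -0.905, -0.864 and -0.865 over 10 arrays, so the gene has no single direction here. The 10 lowest included Timd4, a receptor of resident Kupffer cells, with r = -0.945 and -0.575, Igsf6 with -0.972 and -0.741, and Kbtbd3 with -0.964 and -0.479.

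Slopes at 28 and 90 days were compared gene by gene. No gene had a slope that passed as different between the durations in limma over 10 arrays (0 of 16053, with 1055 at an unadjusted p under 0.05) or over 8 (0, with 595). Cyp2c50 had slopes of 0.38 at 28 and 0.40 at 90 days, and Cyp2b13 1.12 and 1.76. The smallest p-values were those of Dusp14, a phosphatase, with slopes of 0.22 and -0.74, Vldlr, a lipoprotein receptor, with 0.16 and 1.33, and Tmed6 with 0.05 and -1.18. In these the 90-day slope followed PB_90d replicate 3, which read 5.53 for Dusp14 against 4.27 to 4.55, 5.29 for Vldlr against 6.87 to 7.55, and 6.33 for Tmed6 against 4.05 to 4.70.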

How the data were processed

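Liver RNA of 20 mice was measured on Affymetrix 3' arrays, 1 array per mouse, with groups read from the sample titles and 0 columns left unused. The deposited values are log2 intensities that the authors made with RMA, per the submitters' processing notes; its version was not given in the sources used here. They were used as deposited. Signals close to background or to the scanner's ceiling are compressed by this method, so slopes of such genes can be too small.

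Of 45037 probe sets, 34945 had 1 gene symbol in the platform annotation of 2016, 932 several and 9160 none; 34741 Entrez identifiers were found in the reference. The probe set with the highest mean stood for a gene (18193 genes), and genes above the array's 25th percentile on at least 5 arrays were kept (16054 with Cyp2b10). limma 3.58.1 in R 4.3.3 fitted the slope on Cyp2b10 with 1 mean per duration and an intensity trend, leaving 7 residual degrees of freedom over 10 arrays and 5 over 8, with Benjamini-Hochberg adjustment over 16053 genes. All tests were two-sided. Exact permutations within durations numbered 14400 and 576. The fit was tested on simulated data. Figures used Python 3.11.15 and matplotlib 3.10.9, and promoters were aligned with Biopython 1.88.

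The animals, a set of 53 genes (47 tested), 32 lists with 977 entries (830 tested) and the settings were chosen with earlier results of these data known. Named were those genes, the 12 highest and 12 lowest by the weaker r, the 10 smallest p-values each way, up to 3 genes per list by r, and the smallest p-values of each further comparison. Alternatives were other arrays, Cyp2b10 probe sets, filters, probe set rules, scalings, variance priors, the first component as a covariate, ranks, permutation, and the replicate number as a block. Leaving out each of the 8 arrays, and their own first component as a covariate, were added after seeing the data. Whether replicate numbers pair the animals was examined by correlating deviations at 28 and 90 days. For numbers 1 to 5, r was 0.496, -0.034, -0.686, -0.444 and -0.413. Unlike numbers were not correlated for comparison, so these values cannot decide it.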

Additional observations from a re-analysis of the deposited data

Results flagged for a closer look

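In 28 of 144 combinations of a named gene and a group of 5 livers, 1 array was set far from the other 4 by the gap between the extreme value and its neighbour, where chance gives about 1 in 20 for independent values. These combinations are not independent: genes of a group share the same 5 arrays, and some genes were chosen for their relation with Cyp2b10, so this share is no yardstick for the count. PB_28d replicate 5 was the array in 20 of them, PB_90d replicate 3 in 4, and other arrays in 4.

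Among P450 enzymes PB_28d replicate 5 was low for Cyp2c29 (13.86), Cyp2c37 (7.34), Cyp2c50 (12.87), Cyp1a2 (11.52) and Cyp2e1 (13.98). It was also low for the conjugating and hydrolysing enzymes Gstm1 (11.17), Gstm3 (9.74) and Ces2a (13.42), the pumps Abcc2 (7.31) and Abcc3 (8.85), and the receptors Nr1i2 (6.22) and Hnf4a (9.64). Low values in this animal also marked Glul (10.82), Alb (14.82), S100a8 (7.80), Bdh1 (9.82), Ppm1a (9.44) and Ctse (5.05). It was high for Cbr3 (6.17) and Zfp982 (5.29). PB_90d replicate 3 was low for Cyp2b10 (10.54), Cyp2c54 (13.28), Cyp2e1 (14.38) and Nr1i2 (6.57).

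Other animals stood apart for single genes. CMC_90d replicate 1 was high for Cyp2b10 (7.76), and PB_90d replicate 5 was low for Nebl (6.88) and S100a8 (5.42) and high for Ccnd1 (7.50). The slope on Cyp2b10 differed between treated and vehicle livers for 6092 genes in limma, and for 0 without PB_28d replicate 5 and PB_90d replicate 3.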

How the results depend on the processing

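The counts over 10 treated arrays, 3092 genes higher and 2483 lower with Cyp2b10, became 0 and 0 without PB_28d replicate 5 and PB_90d replicate 3 together, within 90 days alone, with ranks in place of values, by exact permutation, and over the 8 arrays with their own first component as a covariate. With the first component of the 10 arrays they became 0 and 1. Leaving out each array gave 0 to 3326 higher and 0 to 2768 lower, with 0 and 0 without PB_28d replicate 5. The replicate block also gave 0 and 0, and whether the numbers pair the animals was not settled. Higher calls numbered 4968 with all probe sets tested singly and 1666 with arrays centred on the 75th percentile; lower calls numbered 1476 with array weights and 1623 within 28 days. Of the 47 named drug-response and control genes, 25 were called, and 0 in each setting above that called 0 genes, the replicate block and first component included, with 0 to 27 when single arrays were left out. Over the 8 arrays the count stayed at 0 whichever array was removed. Lists with a median r above 0 numbered 22 of 32, 13 over 8 arrays and 24 with the first component. Cyp2b10 correlated with that component at 0.855, at -0.233 without both arrays, and at 0.635 to 0.897 without single arrays. Vehicle livers gave 0 calls, and 0 to 3 without single arrays, with 3 without CMC_28d replicate 4. The difference between treated and vehicle slopes went from 6092 genes to 0 without both arrays.

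Among the 25 genes called over 10 arrays, those with the opposite sign over the 8 were Cbr3 0.455, Sult1d1 0.180, Gsta2 -0.0881, Abcc2 -0.142, Abcc3 -0.0550, Slco1a4 -0.0731, Rxra -0.317, Hnf4a -0.0569, Glul -0.00544 and Alb -0.0516. Without single arrays these genes ran from -0.850 to -0.526 (Cbr3), -0.835 to -0.428 (Sult1d1), 0.602 to 0.899 (Gsta2), 0.683 to 0.914 (Abcc2), 0.746 to 0.889 (Abcc3), 0.525 to 0.890 (Slco1a4), 0.669 to 0.888 (Rxra), 0.693 to 0.930 (Hnf4a), 0.602 to 0.935 (Glul) and 0.754 to 0.970 (Alb). With the first component Cbr3 had 0.0046, Sult1d1 0.277 and Rxra -0.168. Over 8 arrays with their first component Cbr3 had 0.402, Gsta2 -0.116, Slco1a4 -0.149, Rxra -0.422 and Alb -0.029, and with centring Alb had -0.232. Of 2159 values for 70 genes, 1624 kept direction and call, 414 lost the call, 16 gained it, 19 turned and 86 moved without a call. The cause of these differences was not tested. The 8 arrays had a Cyp2b10 span of 0.87 and 0.37 log2 units within the durations and left 5 residual degrees of freedom.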

Other observations

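Some genes of the lists kept a negative relation with Cyp2b10 over the 8 arrays as well. Slc7a11, the cystine importer, had r = -0.97 over 10 arrays and -0.87 over 8 where the median of its NRF2 list was 0.80 and -0.19. It was dim, with 4.47 to 5.21 in treated livers, on average only 0.64 log2 units above the array's 25th percentile. Genes in its brightness decile had a median r of -0.44 over 10 arrays and 0.12 over 8. Rpsa, a ribosomal and laminin-binding protein, had -0.94 and -0.74, and Cox6b1, a subunit of cytochrome oxidase, -0.92 and -0.58. Crp, C-reactive protein, turned from 0.93 to -0.70, and Cp, ceruloplasmin, had 0.95 and 0.53, although both belong to the acute phase list. Members of one family also went opposite ways over 10 arrays: Rps25 had r = -0.90 and Rps2 0.89, and over 8 arrays -0.13 and -0.50. Atp5a1, the alpha subunit of ATP synthase, had 0.90 beside Ndufb3, of complex I, at -0.90, and over 8 arrays -0.64 and -0.27. A probe set of Atp5a1 of nearly the same brightness also gave 0.90 over 10 arrays, but only -0.15 over 8.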
